A study of Mus musculus with 8 samples.

Results

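The genes described are the amino acid and peptide transporters of mouse brain endothelial cells (ECs): every gene in the deposited normalized table whose symbol places it in the Slc1, Slc3, Slc6, Slc7, Slc15, Slc17, Slc32, Slc36, Slc38 or Slc43 family of solute carriers. There were 53 such genes among the 16889 in that table. They were defined by symbol and by presence in that table, whose genes had at least 81 counts over all libraries. The definition compared no groups, though it was chosen with earlier results of these data known. Its limit is a total over both groups, so a gene read mostly in 1 group could enter through that group. *Slc6a2* and *Slc17a8*, counted below among the members that rose over 2-fold, were read mostly in mutants. *Slc17a6*, not tested, was read mostly in wild types. The family symbols match 82 annotated genes, and the other 29 had too few reads to be in the table, the highest being *Slc32a1* with 64 counts over all libraries. Just inside the table were *Slc7a4* with 82 counts and *Slc38a4* with 89. The symbol also takes in *Slc7a6os*, a neighbour of *Slc7a6* that does not encode a carrier.

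The study asked which transcripts change in brain ECs that express a constitutively active MAP2K1, the kinase directly upstream of ERK. RNA was sequenced from ECs of 4 mutant and 4 wild-type pups, 1 library per pup, and the labels give the 2 genotypes as Map2k1 K57N and Wild type. Mutant pups were *R26 GT-Map2k1-GFP/+; Tg-Cdh5CreER+/-*, on a background backcrossed to C57BL/6J, and pups of both groups received tamoxifen at P1 and were collected at P9. ECs were pulled from digested whole brain with beads that carry an antibody to CD31. The mutant cDNA is driven by a CAG promoter from the *Rosa* locus after Cre, itself under the endothelial *Cdh5* promoter, removes a stop cassette. No group expressed unmutated MAP2K1 from the same promoter, so overexpression and activation cannot be told apart. Only some of the ECs of a mutant brain carried the recombined allele, so each mutant value averages over recombined and unrecombined cells. No change given here can be assigned to the recombined cells alone. The sources used here describe the controls as wild-type pups in one place and as a pup carrying Cre in another, and they are called wild type here as in the labels. The study took wild-type pups from the litters of the mutants, in matching number, but the labels give neither litter nor sex.

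Amino acids cross the blood-brain barrier through carriers in both membranes of the capillary endothelium, since tight junctions close the path between cells. Large neutral amino acids use system L, a dimer of a light chain such as *Slc7a5* or *Slc7a8* with the heavy chain *Slc3a2*, while cationic amino acids use *Slc7a1*, and glutamine and small neutral amino acids use sodium-coupled carriers of the Slc38 and Slc1 families. Other members of these families belong to neurons and glia, where they take up or package neurotransmitters, or lie in the lysosome.

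Between 24833373 and 34196955 reads were counted per mutant library, and between 28146348 and 32208421 per wild-type library. *Map2k1* had 12673 to 18707 normalized counts in mutant and 1504 to 1760 in wild-type libraries. The 10 endothelial marker genes summed to 363014 to 439820 normalized counts in mutants and 341547 to 413992 in wild types, with 3 of the 10 higher (*Cdh5*, *Pecam1* and *Emcn*) and 3 lower (*Kdr*, *Tek* and *Cldn5*). The counts of higher and lower markers in each list stand beside 21.5% of all genes higher and 22.9% lower. Markers of other cells were present too. Oligodendrocyte markers summed to 1545 to 2591 in mutants against 3870 to 9991 in wild types, and 9 of 9 were lower. Red blood cell genes summed to 2569 to 8448 against 15716 to 27279, with 5 lower. Astrocyte markers summed to 18713 to 22262 against 10989 to 13031, a sum made up mostly of *Gja1*, which ECs may also express and which was the 1 higher marker of 8. The median log2 fold change of the 8 was -0.46, and *S100b* and *Aldh1l1* were lower. Neuronal markers spanned 1085 to 1817 and 1225 to 2967, with 5 of 9 lower and 2 higher. Fibroblast markers summed to 26903 to 34242 against 20358 to 29571, with 2 of 5 higher. Sums of microglial and macrophage markers overlapped, with none of 10 passing the test. Pericyte sums overlapped too, but 2 of 7 pericyte markers were higher, *Abcc9* (3.44-fold) and *Kcnj8* (1.76-fold). Choroid plexus and ependymal markers summed to 1511 to 6357 in mutants against 3157 to 17846.5 in wild types, with 1 of 4 lower. Smooth muscle sums overlapped, with 1 of 4 higher. No marker list held a gene at 0 in all libraries.

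Of the 53 transporters, 51 had enough reads for the test, and 31 of these (60.8%) differed between mutant and wild-type ECs at an adjusted p under 0.05, where 44.4% of all 16887 genes tested did. Genes were tested by the quasi-likelihood method of edgeR, and p was adjusted over all of them (Benjamini-Hochberg). In the mutants 12 rose (23.5%, against 21.5% of all genes) and 19 fell (37.3%, against 22.9%). By more than 2-fold, 8 rose (15.7%, against 5.90%) and 11 fell (21.6%, against 8.05%). The libraries of the 2 groups did not overlap for 27 members (52.9%, against 42.5% of all genes), with the mutants above in 12 and below in 15. The 20 that did not pass had log2 fold changes from -0.79 to 1.40, and *Slc7a4*, one of the pair too low to test, had 5.06, 5.52, 4.43 and 3.48 normalized counts in mutants and 14.7, 6.57, 25.9 and 12.6 in wild types. The median log2 fold change was -0.21 over the members and -0.02 over all genes. Well-counted genes pass more often: among the 24 members whose mean reached 1000 normalized counts, 8 rose, 13 fell and 3 did not pass, where 35.9% of all such genes rose and 22.0% fell. For 20 of the 24 the groups did not overlap, where this held for 55.7% of all such genes. Every library is a mixture of cells, so fewer cells of a type and less RNA per cell cannot be told apart in any of these values.

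The family counts stand beside 21.5% of all genes higher and 22.9% lower. By family, all 10 tested Slc7 members passed, 3 higher and 7 lower, with a median log2 fold change of -0.84. The 7 include *Slc7a6os*, which encodes no carrier, *Slc7a2* and *Slc7a10*. Their groups overlapped, and their calls were lost in 10, 6 and 6 alternative analyses. Slc6 had 1 higher and 6 lower of 10 (median -0.64). Among the 6, *Slc6a11* and *Slc6a15* had overlapping groups and lost their calls in 8 and 5 alternatives. Slc38 was split, with 2 higher, 3 lower and 5 not passing of 10 (median -0.15). Slc1 had 1 higher, 1 lower and 3 not passing of 5 (median -0.40), and Slc43 had 2 higher and none lower of 3 (median 1.03). None of the 4 Slc15 members passed, 2 of the 4 tested Slc17 members were higher, and Slc36 had 1 in each direction of 3. Slc3 holds only 2 genes, of which *Slc3a2* fell. No Slc32 gene reached the table. The plot of fold changes by family shows this arrangement.

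**Figure D1:**
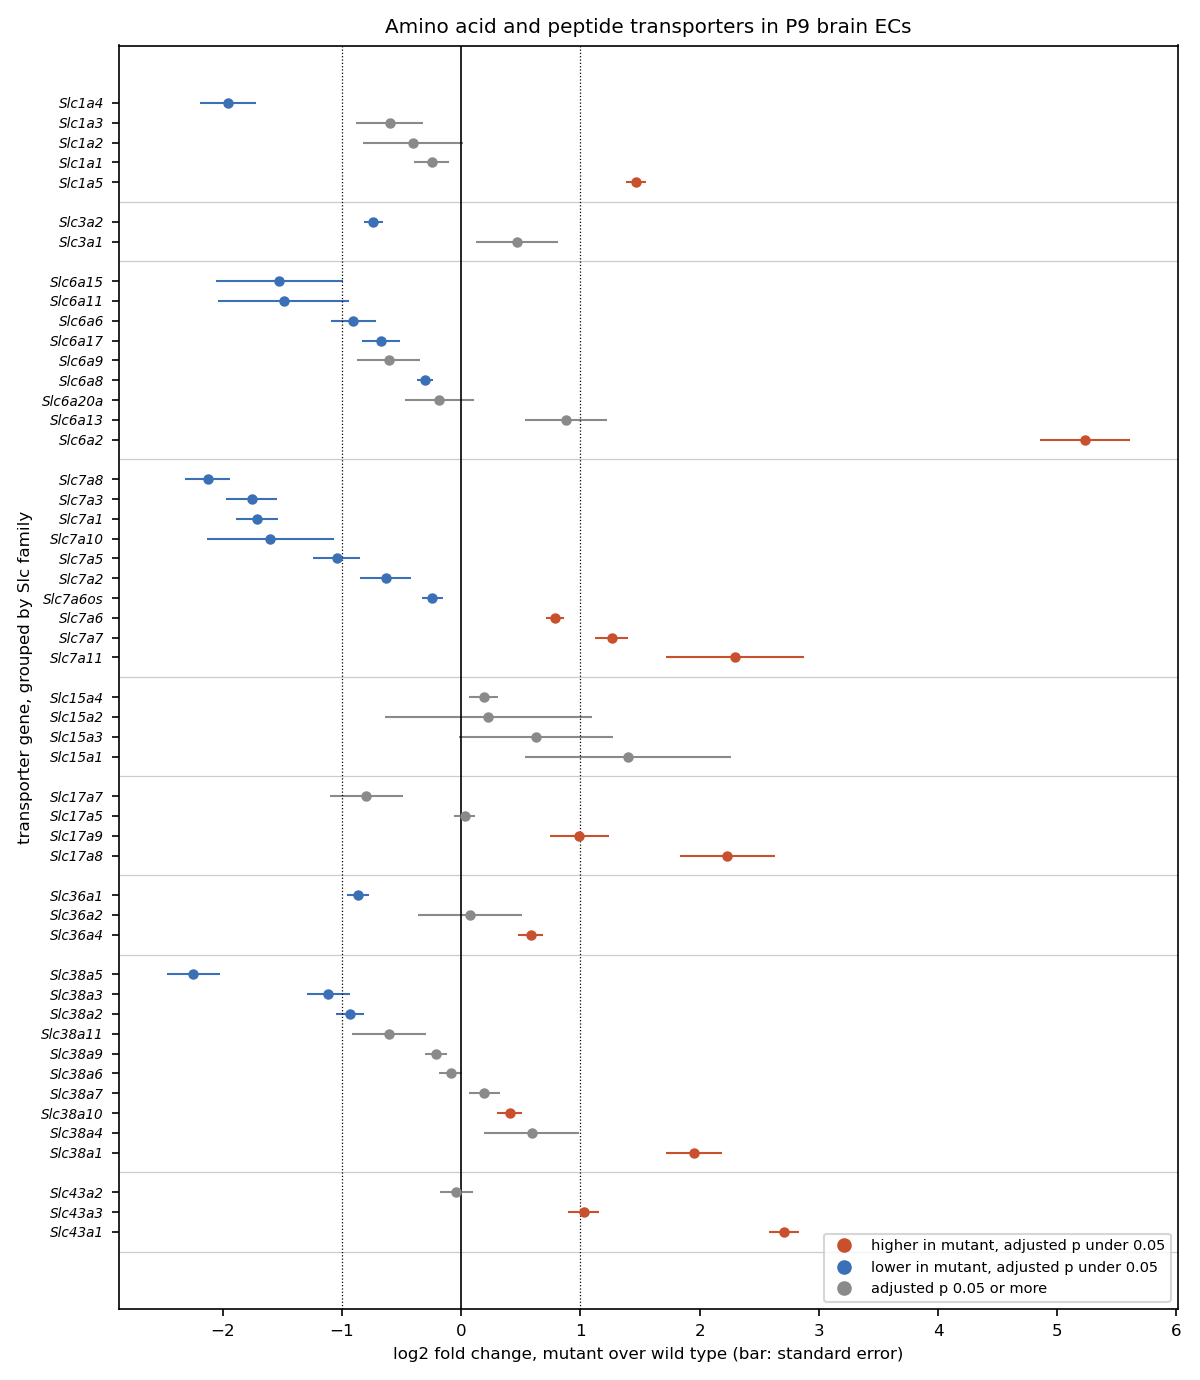
Log2 fold change of mutant over wild type with its standard error for 50 of the 51 tested members, grouped by Slc family, in red where higher, blue where lower and grey where the adjusted p was 0.05 or more; dotted lines mark a 2-fold change. The Slc7 and Slc6 families lie mostly below 0, the Slc43 family does not, and *Slc6a2* is the highest at 5.23 and *Slc38a5* the lowest at -2.25.

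The carriers best known from brain capillaries fell. The list of 6 (*Slc7a5*, *Slc3a2*, *Slc7a1*, *Slc38a3*, *Slc38a5* and the taurine carrier *Slc6a6*) had 6 of 6 lower, 4 of them over 2-fold. Of all genes, 22.9% were lower and 8.05% lower over 2-fold. The median log2 fold change was -1.08 for the list and -0.02 over all genes. The list was chosen with earlier results of these data known, so its count carries no test. *Slc7a5* encodes LAT1, the light chain of system L that carries leucine, phenylalanine and tryptophan (GRCm38, as all positions here, chr8:121881150-121907694, minus strand). Its normalized counts were 32149, 34298, 26744 and 16418 in mutants 1 to 4 and 61283, 60707, 50804 and 53151 in wild types 1 to 4. Every mutant library lay below every wild-type library, with mutant 4 the lowest. The mean fell to 48.5% of wild type (log2 fold change -1.04, SE 0.19, edgeR adjusted p = 0.00165). Its partner *Slc3a2*, the CD98 heavy chain that brings the light chains to the membrane, had 21396, 21842, 21417 and 18633 normalized counts in mutants and 35431, 35368, 32269.9 and 35769 in wild types (chr19:8706882-8723369, minus strand). The groups were again apart and the spread within each was small. *Slc3a2* fell to 60.0% of wild type (log2 fold change -0.74, SE 0.08, edgeR adjusted p = 5.92e-05). *Slc7a8*, the light chain LAT2, had 1053, 1725, 2129 and 1267 normalized counts in mutants and 6817, 7269, 6547 and 6318 in wild types. The highest mutant stood far below the lowest wild type. It fell to 22.9% (log2 fold change -2.13, SE 0.19, edgeR adjusted p = 2.09e-05).

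The Slc43 members of system L did not share that direction. *Slc43a1* encodes LAT3, a carrier of large neutral amino acids that needs no heavy chain (chr2:84838850-84863594, plus strand). It had 685, 622, 596 and 568 normalized counts in mutants and 92.9, 95.7, 109.6 and 79.0 in wild types, a rise of 6.55-fold (log2 fold change 2.71, SE 0.13, edgeR adjusted p = 4.61e-07). The 8 libraries formed 2 tight groups far apart. *Slc43a2*, which encodes the related LAT4, had 5024, 3914, 3029.7 and 3397 normalized counts in mutants and 4297, 4029.9, 3647 and 3809 in wild types, overlapping groups with a log2 fold change of -0.04 (edgeR adjusted p = 0.838). *Slc43a3*, a member of the same family that carries purine nucleobases rather than amino acids, had 3436, 2738, 2221 and 2906 normalized counts in mutants and 1399.8, 1592, 1213 and 1329.9 in wild types, with every mutant above every wild type. It rose 2.04-fold (log2 fold change 1.03, SE 0.13, edgeR adjusted p = 0.000159). In TPM, a scale that allows for gene length and for depth, *Slc43a1* stood at 13.1 ± 0.802 in mutants and 2.11 ± 0.344 in wild types (SD, n = 4), far under *Slc7a5* at 898 ± 255 and 1936 ± 145.

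Cationic amino acid carriers divided between falling uniporters and rising y+L exchangers. *Slc7a1*, the arginine and lysine carrier CAT1, had 14171, 22940.5, 21168 and 13185 normalized counts in mutants and 62308, 62276, 53513 and 56298 in wild types (chr5:148327410-148399904, minus strand). Mutants 1 and 4 were lowest, and all mutants were well below every wild type. *Slc7a1* fell to 30.5% of wild type (log2 fold change -1.71, SE 0.17, edgeR adjusted p = 4.65e-05). *Slc7a3*, the related CAT3, was low in both groups and fell to 29.6%, from 349.9 ± 75.0 to 104 ± 27.3 normalized counts (SD, n = 4, log2 fold change -1.76, SE 0.22, edgeR adjusted p = 0.000137). *Slc7a2*, which encodes CAT2, had a log2 fold change of -0.63 with overlapping groups (edgeR adjusted p = 0.0327). Both y+L light chains, which pair with *Slc3a2* and exchange cationic for neutral amino acids, went the other way. *Slc7a7* (y+LAT1) had 2020.4, 1737, 1375 and 1313 normalized counts in mutants and 739, 698, 628 and 619 in wild types, and rose 2.40-fold (log2 fold change 1.26, SE 0.14, edgeR adjusted p = 6.83e-05). *Slc7a6* (y+LAT2) had 1367, 1459.7, 1478 and 1639 normalized counts in mutants and 817, 865, 903 and 869 in wild types, and rose 1.72-fold (log2 fold change 0.78, SE 0.08, edgeR adjusted p = 3.48e-05). In neither did a mutant library reach down to a wild-type one. *Slc7a7* shares exon sequence with *Oxa1l* on the opposite strand, and the use of strand in counting was not given in the sources used here, so their reads cannot be told apart. Over all libraries *Oxa1l* had 10304 counts and *Slc7a7* 8789. *Slc38a10*, *Slc6a6*, *Slc7a10* and *Slc7a2* also share exon sequence with a gene opposite each. That gene had 784 counts against 195 for *Slc7a10*. For *Slc6a6*, *Slc38a10* and *Slc7a2* it had few, with 176 against 296326, 403 against 36119 and 17 against 2368. *Slc7a6os*, the gene beside *Slc7a6* that encodes no carrier, had 1018 ± 112 normalized counts in mutants and 1204 ± 53.7 in wild types (SD, n = 4), with overlapping groups (edgeR adjusted p = 0.0437). The calls of *Slc7a2* and *Slc7a6os* were lost in 6 and 10 of the alternative analyses.

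**Figure D2:**
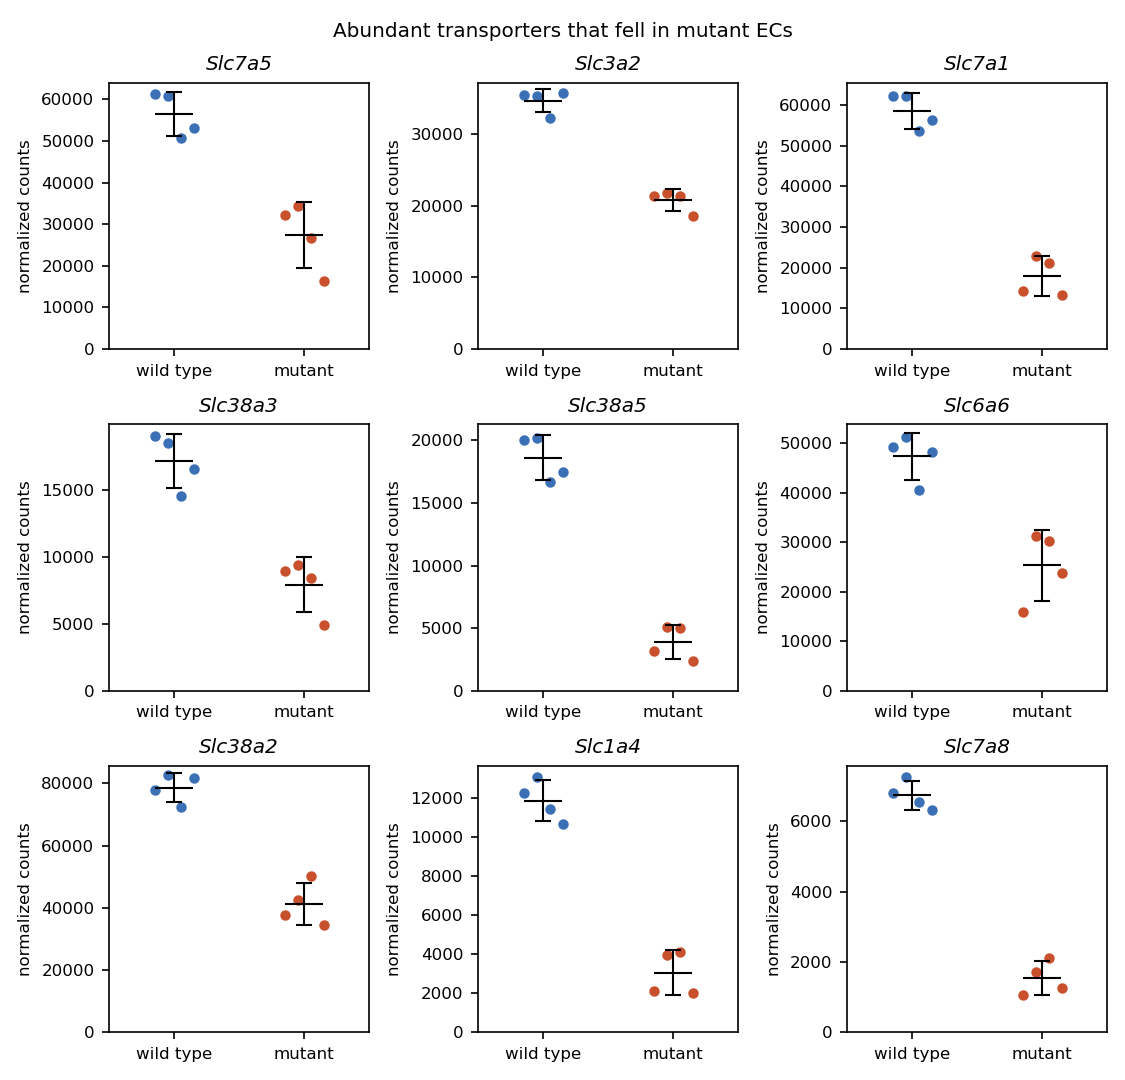
Normalized counts per library, on linear axes from 0, for 9 abundant members that fell, with points for libraries and bars for the mean and SD of each group (n = 4). In all 9 panels every mutant point lies below every wild-type point.

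The exchangers of small neutral amino acids moved in opposite directions. *Slc1a4* encodes ASCT1, a carrier of serine and alanine, and had 2119, 3975, 4134 and 1991 normalized counts in mutants and 12244, 13064, 11411 and 10649 in wild types (chr11:20302180-20332713, minus strand). Mutants 1 and 4 were lower than mutants 2 and 3, and all lay below the wild types. It fell to 25.8% (log2 fold change -1.95, SE 0.23, edgeR adjusted p = 0.000119). *Slc1a5* encodes ASCT2, which exchanges glutamine, and had 4372, 4658, 5291 and 5345 normalized counts in mutants and 1665, 1852, 1879 and 1726 in wild types (chr7:16781340-16798274, plus strand). The groups were tight and apart, and *Slc1a5* rose 2.76-fold (log2 fold change 1.47, SE 0.08, edgeR adjusted p = 1.48e-06). *Slc7a11* encodes xCT, which takes up cystine for glutathione in exchange for glutamate (chr3:49892526-50443614, minus strand). It had 1421, 1359, 2116 and 5615 normalized counts in mutants and 218, 261, 618 and 1053 in wild types. All mutants were higher, but the spread was wide and mutant 4 alone held more than the other mutants together. The fitted rise was 4.89-fold from the group means (log2 fold change 2.30, SE 0.58, edgeR adjusted p = 0.00869), and 1.63 on the log2 scale without mutant 4 (edgeR adjusted p = 0.0211). *Slc7a10* (Asc-1), which astrocytes and neurons express, had 11.4 ± 7.47 normalized counts in mutants and 34.8 ± 16.0 in wild types (SD, n = 4), with overlapping groups (log2 fold change -1.60, SE 0.53, edgeR adjusted p = 0.0308), and its call was lost in 6 alternatives.

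**Figure D3:**
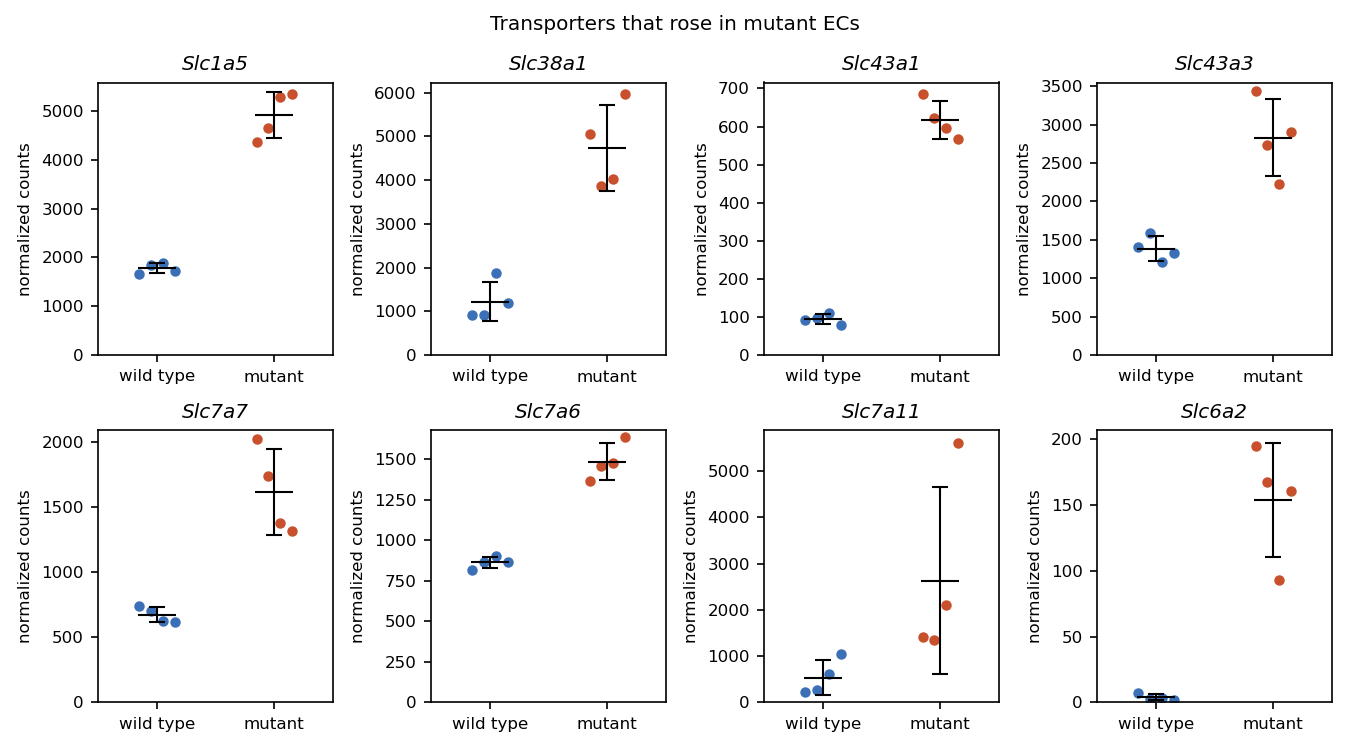
Normalized counts per library, on linear axes from 0, for members that rose, with points for libraries and bars for the mean and SD of each group (n = 4). *Slc43a1* and *Slc1a5* form tight groups, while *Slc7a11* spans 1359 to 5615 normalized counts among mutants.

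Glutamine carriers of systems A and N had 3 lower and 1 higher of 6, where 22.9% of all genes were lower and 21.5% higher. *Slc38a5* (SNAT5, system N) fell the most of all tested members, with 3167, 5082, 5051 and 2394 normalized counts in mutants against 20049, 20214, 16659 and 17520.5 in wild types (chrX:8271133-8280179, plus strand). No mutant came near the lowest wild type. It fell to 21.1% (log2 fold change -2.25, SE 0.22, edgeR adjusted p = 3.97e-05). *Slc38a3* (SNAT3, system N) had 8989, 9437, 8407 and 4926 normalized counts in mutants and 19030.3, 18532, 14556 and 16618 in wild types and fell to 46.2% (log2 fold change -1.11, SE 0.18, edgeR adjusted p = 0.000763). *Slc38a2* (SNAT2, system A), the highest of all members in TPM, had 37886, 42478, 50299.7 and 34492 normalized counts in mutants and 77924, 82568, 72536 and 81628 in wild types and fell to 52.5% (log2 fold change -0.93, SE 0.12, edgeR adjusted p = 0.000152). Its relative *Slc38a1* (SNAT1, system A) had 5046, 3867, 4032 and 5973 in mutants and 917, 907, 1866 and 1193 in wild types, with wild type 3 the highest control. No mutant overlapped it. *Slc38a1* rose 3.87-fold (log2 fold change 1.95, SE 0.23, edgeR adjusted p = 0.000122). Among the members on intracellular membranes or of uncertain substrate, *Slc38a10* rose by 0.41 on the log2 scale (edgeR adjusted p = 0.0104), and *Slc38a9*, the lysosomal arginine sensor, had -0.21 (edgeR adjusted p = 0.0829).

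The acidic amino acid carriers did not pass. *Slc1a1* (EAAC1), the neuronal and epithelial glutamate carrier, had 1824 ± 363 normalized counts in mutants and 2164 ± 368 in wild types (SD, n = 4), with a log2 fold change of -0.25 (edgeR adjusted p = 0.198). *Slc1a3* (GLAST) had -0.60 and *Slc1a2* (GLT-1) -0.40 on the same scale, at adjusted p of 0.108 and 0.464 by edgeR. The last are best known from astrocytes, and both had overlapping groups.

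Among Slc6 carriers of amino acids and osmolytes, 4 of 5 fell, where 22.9% of all genes did. *Slc6a6*, the taurine transporter, had 15847, 31277, 30205 and 23788 normalized counts in mutants and 49242, 51209, 40491 and 48220.2 in wild types. Mutant 1 was lowest and no mutant reached the wild types. It fell to 53.5% (log2 fold change -0.90, SE 0.19, edgeR adjusted p = 0.00301). *Slc6a8*, the creatine transporter, had 1358, 1251, 1361 and 1343 normalized counts in mutants and 1533, 1775, 1682 and 1564 in wild types, a small and tight decrease to 81.1% (log2 fold change -0.30, SE 0.07, edgeR adjusted p = 0.00542). *Slc6a17*, a carrier of neutral amino acids into synaptic vesicles, fell to 62.7% (log2 fold change -0.67, SE 0.16, edgeR adjusted p = 0.00553). *Slc6a15*, a carrier of branched-chain amino acids and proline in neurons, had 22.8, 6.62, 29.9 and 13.9 normalized counts in mutants and 41.4, 35.7, 107 and 24.2 in wild types, so its groups overlapped (log2 fold change -1.52, SE 0.54, edgeR adjusted p = 0.0392), and without wild type 3 its log2 fold change was -0.89 (edgeR adjusted p = 0.130).

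*Slc6a2*, the noradrenaline transporter, had the largest rise of any member, and it carries a monoamine, not an amino acid (chr8:92960079-93001667, plus strand). It had 195, 168, 92.9 and 161 normalized counts in mutants and 7.36, 2.82, 3.45 and 2.11 in wild types, the latter from 8, 3, 4 and 2 reads. It was nearly unread in controls and moderate in every mutant (log2 fold change 5.23, SE 0.38, edgeR adjusted p = 5.98e-06). In TPM it stayed low, at 2.97 ± 0.792 in mutants. The GABA carriers described here, also low, had no rise that passed. *Slc6a11* (GAT3), found on astrocytes, had 19.0, 46.4, 85.2 and 37.4 normalized counts in mutants and 193, 208, 92.4 and 34.7 in wild types, so wild type 4 lay within the mutant range (log2 fold change -1.49, SE 0.55, edgeR adjusted p = 0.0478), and its call was lost in 8 alternatives, among them the replicate block (edgeR adjusted p = 0.0730) and the label prefix block (0.0575). *Slc6a13* (GAT2), which leptomeningeal cells and brain vessels express, had a log2 fold change of 0.88 (edgeR adjusted p = 0.0602). Of the 10 tested members best known from neurons or astrocytes, 5 were lower, 2 higher and 3 did not pass, where 22.9% of all genes were lower and 21.5% higher. Neuronal, inhibitory neuron and astrocyte markers moved in part, with 5 of 9, 3 of 5 and 2 of 8 lower. In the other direction, 2 of 9 neuronal and 1 of 8 astrocyte markers were higher. The part of such cells in these decreases was not tested.

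The remaining families showed few changes. *Slc36a1* (PAT1), a proton-coupled carrier that exports small amino acids from lysosomes, had 849.6, 836, 901 and 755 normalized counts in mutants and 1514, 1733, 1373 and 1457 in wild types and fell to 55.0% (log2 fold change -0.86, SE 0.09, edgeR adjusted p = 5.48e-05). *Slc36a4* (PAT4) had 2769, 2506, 2045 and 2633 normalized counts in mutants and 1539.6, 1564, 1633 and 1907 in wild types and rose (log2 fold change 0.58, SE 0.10, edgeR adjusted p = 0.00131). Neither pair of groups overlapped. The peptide carriers *Slc15a2* and *Slc15a3* varied widely between pups. *Slc15a2* (PEPT2) had 2234, 1089.8, 242 and 13.9 normalized counts in mutants 1 to 4 and 591, 748, 824 and 873 in wild types, so mutants lay on both sides of the controls (log2 fold change 0.23, SE 0.86, edgeR adjusted p = 0.849). *Slc15a3* (PHT2), a lysosomal peptide and histidine carrier of immune cells, had 308, 497, 1800.3 and 2534 normalized counts in mutants and 434, 575, 1802 and 516 in wild types (log2 fold change 0.63, SE 0.65, edgeR adjusted p = 0.455). Summed microglial and macrophage markers had 3793, 4876, 13104 and 9424 normalized counts in mutants and 5024, 6753, 16125 and 4742 in wild types, so mutants 3 and 4 and wild type 3 were high for both, and the markers' part in this spread was not tested. Of the vesicular members, *Slc17a8* (VGLUT3) and *Slc17a9* (the vesicular nucleotide transporter VNUT) were higher, by 2.23 and 0.99 on the log2 scale (edgeR adjusted p = 0.00119 and 0.00813), both under 100 normalized counts in every library. *Slc17a5* (sialin), the lysosomal sialic acid exporter and the most abundant Slc17 member by TPM, had 604 ± 53.1 normalized counts in mutants and 591 ± 23.8 in wild types (SD, n = 4), which was no detectable difference (edgeR adjusted p = 0.797). *Slc17a6* (VGLUT2) was not tested, with 0, 1.10, 1.11 and 6.08 normalized counts in mutants and 59.8, 19.7, 79.4 and 6.32 in wild types.

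In TPM the transporter transcripts of the mutants summed to 4681 ± 640 (SD, n = 4) against 9428 ± 381 in wild types, or 49.7%. The loss lay in the most abundant members. The 9 highest in wild types fell together from 8770 ± 404 to 3797 ± 688 TPM, while the other 44 summed to 658 ± 49.4 in wild types and 884 ± 48.5 in mutants. These sums describe groups ranked on the same libraries and were not tested. *Slc38a2*, *Slc7a5* and *Slc3a2* led in that order in both groups. Their wild-type levels were 2162 ± 74.7, 1936 ± 145 and 1251 ± 20.9 TPM. *Slc38a5* followed at 1055 ± 81.6. In mutants the order of the first 3 held, at 1088 ± 193, 898 ± 255 and 718 ± 49.4 TPM, and *Slc38a2* and *Slc7a5* were within their spread of each other. *Slc6a6*, *Slc38a5*, *Slc7a1* and *Slc38a3* came next at 365 ± 108, 214 ± 76.0, 189 ± 53.8 and 183 ± 46.4, with the last 3 not separable. *Slc1a5*, 11th in wild types at 54.4 ± 4.56 TPM, was 8th in mutants at 144 ± 16.6.

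**Figure D4:**
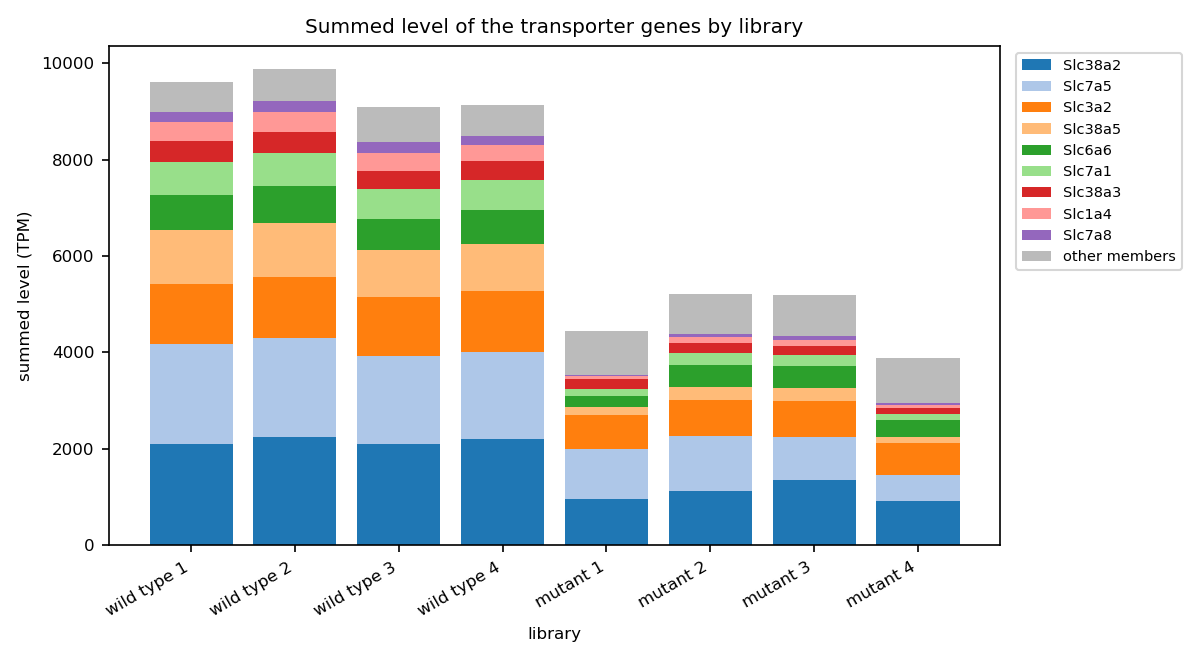
Summed TPM of all members in each library, as stacked bars with the most abundant members coloured and the rest in grey. The wild-type bars reach 9093 to 9876 TPM and the mutant bars 3891 to 5221, while the grey part is larger in the mutants.

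The balance between related carriers shifted. The TPM of *Slc1a4* was 7.08 ± 0.679 times that of *Slc1a5* in wild types and 0.662 ± 0.245 times in mutants (SD, n = 4). *Slc7a8* stood at 8.21 ± 0.466 times *Slc7a7* in wild types and 0.822 ± 0.343 times in mutants. For *Slc38a2* over *Slc38a1* the ratio was 128 ± 42.4 in wild types and 16.7 ± 5.59 in mutants, and for *Slc7a1* over *Slc7a6* it was 27.0 ± 2.99 and 4.80 ± 1.40. In each pair the first gene fell and the second rose. The heavy chain *Slc3a2* stood at 0.851 ± 0.240 times *Slc7a5* in mutants and 0.649 ± 0.0476 times in wild types. The pairs were chosen with these values known and their ratios carry no test.

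**Figure D5:**
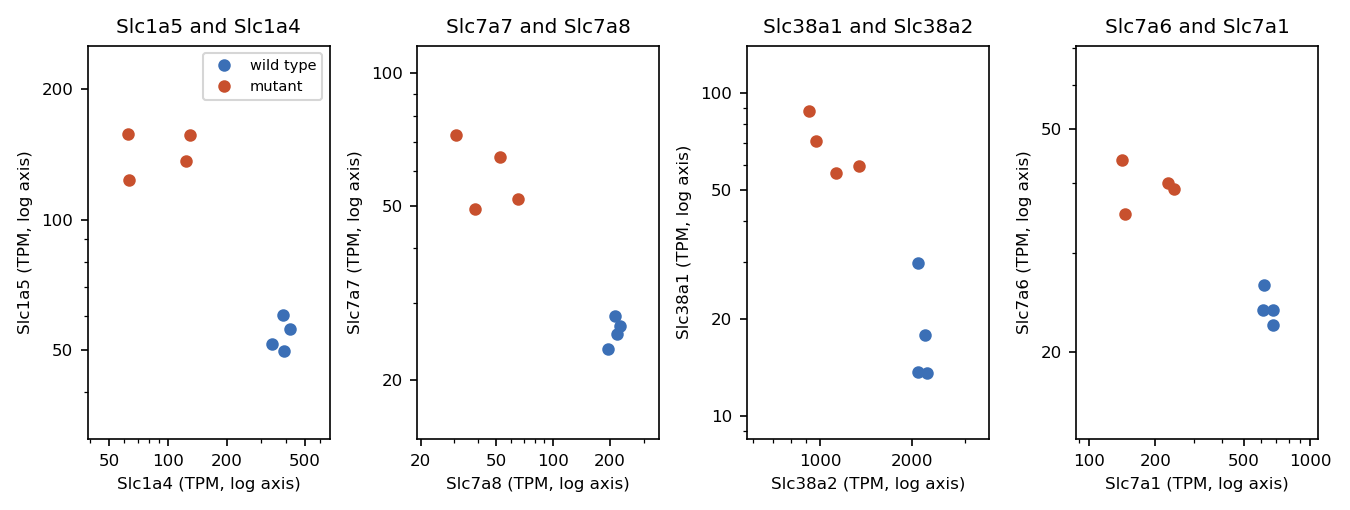
TPM of 4 pairs of related carriers in each library, on log axes, with the gene that fell on the horizontal axis and its relative that rose on the vertical axis. Mutant and wild-type libraries form separate groups in every pair.

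Some of these genes lie close together in the genome. *Slc38a1* and *Slc38a2*, which changed in opposite directions, are 44481 bp apart on chromosome 15 (chr15:96571418-96642913, minus strand, and chr15:96687394-96699698, minus strand). *Slc7a7*, higher, and *Slc7a8*, lower, are 304436 bp apart on chromosome 14. *Slc43a1* and *Slc43a3*, both higher, are 72985 bp apart on chromosome 2.

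Promoters are printed for 4 members that rose (*Slc7a11* and *Slc7a7*) or fell (*Slc7a8* and *Slc7a1*) over 2-fold, though other members changed as much. These promoters come from RefSeq (GRCm38.p6), which gave a window before the start for 37 of the 53 members. They are on the minus strand, 5′ to 3′. Capitals mark matches, on either strand, to the CARE (TTGCATCA), where ATF4 binds, or to the AP-1 motif (TGANTCA). Where a gene had several windows, the one with the most CARE matches was printed. The printed stretches lie at chr3:50443615-50443863 (*Slc7a11*), chr14:54417923-54417952 (*Slc7a7*, 30 bases around the match), chr14:54781887-54782136 (*Slc7a8*) and chr5:148399905-148400154 (*Slc7a1*).
Slc7a11: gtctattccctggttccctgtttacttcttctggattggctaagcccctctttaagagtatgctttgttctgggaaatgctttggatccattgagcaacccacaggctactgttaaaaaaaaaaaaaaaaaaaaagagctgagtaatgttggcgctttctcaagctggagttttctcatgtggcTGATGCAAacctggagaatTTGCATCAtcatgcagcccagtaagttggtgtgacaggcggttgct
Slc7a7: tagaagcTGATGCAAcagcttccccgaggg
Slc7a8: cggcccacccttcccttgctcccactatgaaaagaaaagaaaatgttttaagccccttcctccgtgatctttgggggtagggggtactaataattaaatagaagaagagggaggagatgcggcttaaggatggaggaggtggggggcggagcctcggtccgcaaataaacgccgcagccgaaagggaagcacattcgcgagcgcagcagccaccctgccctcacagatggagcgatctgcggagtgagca
Slc7a1: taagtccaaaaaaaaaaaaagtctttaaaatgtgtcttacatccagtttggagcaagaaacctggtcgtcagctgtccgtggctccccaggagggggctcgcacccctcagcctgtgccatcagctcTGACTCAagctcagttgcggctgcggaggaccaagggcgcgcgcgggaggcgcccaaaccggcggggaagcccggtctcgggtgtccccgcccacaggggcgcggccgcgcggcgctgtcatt
The CARE was in a window of 0.918% of 27025 genes and of 2 of the 37 members, *Slc7a11* and *Slc7a7*, and both rose. Its matches were at 66 and 47 bases before the start in *Slc7a11*. In *Slc7a7* the match was at 243, in a window of which 78 bases lie in annotated exons. The printed windows were picked by this motif, so their matches carry no test. *Slc7a1*, which fell, has an AP-1 match at 123 bases, a motif in 7.82% of genes and in 5 members, 1 higher and 2 lower. *Slc7a8* has a match to neither. The ETS motif (CCGGAAG) was in 7.83% of genes and 5 members, 2 higher and 2 lower. The E-box (CACGTG) was in 6.86% and 4, 1 higher and 2 lower. The TCF/LEF motif (CTTTGAT) was in 3.72% and 4, 1 higher and 1 lower. A match is not evidence that the factor binds.

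Genes of pathways around these carriers were counted against all genes tested, of which 21.5% were higher and 22.9% lower (44.4% either way). Of 19 genes of the amino acid response, which a shortage of amino acids induces through ATF4, 7 were higher and 2 lower, with a median log2 fold change of 0.24. *Mthfd2*, a mitochondrial folate enzyme, rose from 214 ± 15.5 to 555 ± 110.0 normalized counts (SD, n = 4, log2 fold change 1.38, SE 0.14, edgeR adjusted p = 4.94e-05). *Asns*, asparagine synthetase, rose too (log2 fold change 1.12, SE 0.12, edgeR adjusted p = 5.79e-05). *Trib3*, a pseudokinase induced by ATF4, rose as well (log2 fold change 1.13, SE 0.24, edgeR adjusted p = 0.00375). *Psat1*, of serine synthesis, was higher by 0.76 on the log2 scale. *Atf4* itself had a log2 fold change of 0.05 (edgeR adjusted p = 0.639), and *Ddit3* (CHOP) was lower at -0.62 (edgeR adjusted p = 0.000341). The other lower gene was *Atf3*, at -0.52 (edgeR adjusted p = 0.00682). Of 20 genes of lysosomal amino acid sensing, which reports amino acids to mTORC1, 2 were higher and 4 lower (median -0.02), among them *Rragb* at -1.69, *Sesn1* at -0.84, *Lamtor4* at -0.44 and *Castor2* at 0.33 on the log2 scale. Among 9 glutathione genes, downstream of cystine uptake, 2 were higher and 1 lower (median 0.47). Glutathione synthetase (*Gss*) had 0.51, glutathione reductase (*Gsr*) 0.47 and *Chac2*, which degrades glutathione, -0.60 as log2 fold change. The calls of *Gsr* and *Chac2* were each lost in 6 alternatives, that of *Rragb* in 5 and that of *Castor2* in 2. Of 10 tested enzymes of glutamate and glutamine metabolism, 5 were higher and 3 lower (median 0.46). *Abat*, which breaks down GABA, was lower at -1.19 on the log2 scale (edgeR adjusted p = 0.00247). *Glul*, glutamine synthetase, was lower at -0.85 (edgeR adjusted p = 0.000324), and *Gad1*, which makes GABA in inhibitory neurons, at -2.46 (edgeR adjusted p = 3.76e-05). None of 5 tested amino acid carriers of other families passed.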

How the data were processed

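Brain ECs of 4 mutant and 4 wild-type pups gave 1 library each, grouped by the labels' titles. Per the study's methods, the authors trimmed reads with Trimmomatic and mapped them to GRCm38 with STAR. The counting program, the use of strand and the treatment of multimapping reads are not given in the sources used here. The authors deposited unnormalized counts for 49315 genes per library. They also deposited a normalized signal for 16889 genes, counts divided by 1 DESeq2 size factor per library, in which 100% of values came out as whole reads within 0.001 counts. That table set the members, and the counts were tested.

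Symbols came from GENCODE vM21 (48970 IDs matched). Tests ran under R 4.3.3, using edgeR 4.0.16 (TMM, filterByExpr at a minimum count of 10, glmQLFit and glmQLFTest with no covariate), with Benjamini-Hochberg adjustment over 16887 genes. Normalized counts are counts scaled by TMM to the average library size, and TPM used the deposited gene lengths. The SE was the fold change divided by the square root of F. Libraries of a group differed by more than sampling noise (chi-square per degree of freedom 6.70 to 37.1 over 12 pairs). The p-values measure the spread between pups. The scripts were tested on simulated data. The members, gene lists and pairs were chosen with earlier results of these data known. Named were members past an adjusted p of 0.05 and a 2-fold change, the most abundant member of each family by TPM, the brain endothelial list, members whose mean reached 1000 normalized counts, and up to 4 genes per pathway list with the largest change among those that passed. Other members, *Atf4*, *Ddit3* and *Atf3* were named after their values were seen. The values of 1 member that entered the counts are not reported here. Alternatives were DESeq2 1.42.0, other scalings and filters, blocks, a test against a 2-fold limit (glmTreat) and each library left out. Libraries held 24833373 to 34196955 counts, so variation among pups limits precision more than counting does, except for members with a few counts.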

Additional observations from a re-analysis of the deposited data

Results flagged for a closer look

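Among the 76 groups of 4 libraries checked, over 38 genes, 5 held a library far from the rest, and chance gives about 1 in 20. The measure is the gap of the extreme library to its nearest neighbour over the range of the group. It was 0.897 for *Slc15a3* in wild types, where wild type 3 was high at 1802 normalized counts, and 0.883 for *Slc1a1*, where wild type 4 was high at 2714. For *Slc3a2* it was 0.861 in mutants, with mutant 4 low at 18633, and 0.885 in wild types, with wild type 3 low at 32270. For *Slc6a8* it was 0.835 in mutants, with mutant 2 low at 1251.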

How the results depend on the processing

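The counts of members higher and lower were 12 and 19, with 8 and 11 over 2-fold. Without 1 library at a time, 12 to 14 were higher, 14 to 23 lower, 8 to 9 higher over 2-fold and 7 to 14 lower over 2-fold (7 without wild type replicate 1, 14 without mutant replicate 3). With genes of a mean of at least 100 counts, 7 were lower over 2-fold. Tested against a 2-fold limit, 5 were higher (*Slc43a1*, *Slc1a5*, *Slc17a8*, *Slc6a2* and *Slc38a1*) and 6 lower, among them *Slc38a5*, *Slc7a3*, *Slc7a1*, *Slc7a8* and *Slc1a4*.

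Wild-type pups were matched to mutants by litter, per the study's methods, but no source ties a replicate number or a label prefix to a litter. Replicate numbers were not taken as pairs, since the correlations of deviations for numbers 1 to 4 were 0.201, 0.210, 0.290 and 0.0241, and mutants 2 and 4 correlated best with another number. With the replicate number as a block, 14 members were higher and 19 lower, 9 and 10 over 2-fold, and 8162 of all genes passed in place of 7504. With the prefix shared by library labels as a block, the member counts were 14, 19, 9 and 10, and 8610 of all genes passed. Either block ended the call of *Slc6a11* (edgeR adjusted p 0.0730 by number, 0.0575 by prefix), as did DESeq2 (0.0735), and neither ended another named call. Mutant 2 correlated best with wild type 1, which shares its prefix. Within prefixes, of which 2 of 3 hold 1 library per group, *Slc6a11* alone of the members that passed turned direction, in 1 prefix, and since they passed on these libraries this says little on stability.

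Across these alternatives, direction turned only in named members that had not passed. *Slc15a2* had -0.72 with the replicate block, -0.61 with the prefix block and -0.74 without mutant 1. Over the libraries left out its range was -0.74 to 0.67. *Slc17a5* had -0.0329 with upper-quartile scaling, -0.0257 with library totals and -0.00431 to 0.0782 over the libraries left out, the lowest without mutant 1. *Slc43a2* ranged from -0.17 to 0.0671 over the libraries left out, and was above 0 without mutant 3, mutant 4 or wild type 1. Of 46 named genes that passed, 37 kept their call in every one of the 17 alternatives that gave them a value (genes under a mean of 100 counts had none under that filter), and *Slc7a6os*, *Slc6a11*, *Slc7a10*, *Slc7a2*, *Slc6a15*, *Chac2*, *Gsr*, *Rragb* and *Castor2* lost it in at least 1. *Ddit3*, *Atf3* and the cell type markers were not among the 46. The call of *Slc7a6os* was lost without any library but mutant 3 (edgeR adjusted p 0.0606 to 0.149), of *Slc7a10* without any but mutant 3 and wild type 4 (0.0503 to 0.0827), of *Slc7a2* likewise (0.0599 to 0.0977), of *Slc6a11* without mutant 1, 2 or 4 or wild type 1 or 2 (0.0930 to 0.134) and of *Slc6a15* without mutant 1, 2 or 4 or wild type 1 or 3 (0.0600 to 0.130). *Chac2* lost it without mutant 1, 3 or 4 or wild type 1 or 2 (0.0679 to 0.106), *Gsr* without mutant 3 or 4 or wild type 1 or 2 (0.0600 to 0.0917) and *Rragb* without mutant 2 or 4 or wild type 1, 2 or 3 (0.0604 to 0.0951). *Castor2* lost it under upper-quartile scaling and library totals. *Slc1a1* passed without mutant 1 (-0.37, adjusted p 0.0360) and *Slc1a3* without mutant 3 (-0.84, 0.0317) or wild type 4 (-0.79, 0.0308). The cause was not tested. The median of all genes moved by under 0.1 on the log2 scale. Members with few counts (15 under a mean of 100) are limited by depth.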
